A study of Mus musculus with 132 samples.

Results

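The 10 genes described here encode the core of the microRNA pathway in mouse preimplantation embryos. Drosha and Dgcr8 form the nuclear Microprocessor, Dicer1 encodes the cytoplasmic RNase that cuts precursor hairpins, Ago1 to Ago4 encode the Argonaute proteins that carry mature microRNAs, and Tnrc6a, Tnrc6b and Tnrc6c encode the GW182 scaffolds that join Argonaute to the deadenylases. They are picked out by symbol, so that no measured value enters the rule, although the set itself was proposed with earlier results of these data known. All 10 were found among the 32245 genes of the count table. Single cells of mouse embryos were profiled by Smart-seq2, a plate-based method that reads polyadenylated RNA without unique molecular identifiers. Embryos of C57BL/6 x DBA F1 parents (C57BL/6NCrl and DBA/2NHsd in the study's methods) were taken at the 2-cell stage and cultured until the 8-cell stage (E2.5) or the 32-cell stage (E3.5). The medium held either a scrambled control mimic (control) or a synthetic mimic of miR-381-3p (mimic), each taken up passively from the medium. This gave 30 cells of 8-cell control, 24 of 8-cell mimic, 39 of 32-cell control and 39 of 32-cell mimic embryos.

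The labels give the dose as 5 or 10 µM without saying which cell received which. The text of the study gives the higher dose for the 8-cell embryos and the lower for the 32-cell embryos, so dose and stage cannot be told apart among mimic cells. Each group came from 3 to 5 embryos, but no label ties a cell to its embryo. Each group therefore counts as 1 sample, no replicate check exists for any difference, and no p-value is given. Counts were summed over the cells of a group and expressed as CPM, the counts per 1000000 counts of all genes but the mitochondrial ones. The 95% intervals are exact Poisson intervals and cover counting error only, as do the exact binomial intervals of cell shares. PCR copies of a molecule are counted as separate reads, so the Poisson intervals are too narrow. The binomial intervals treat cells of the same embryo as separate, so they can be too narrow as well. Total counts per cell lay between 544866 and 3461022, and cells had between 3243 and 8983 genes with a count. Of the 24 cells of 8-cell mimic embryos, 4 had under 6000 genes, against 0 of 30 in 8-cell control, 1 of 39 in 32-cell control and 1 of 39 in 32-cell mimic.

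Sex differed with treatment at the later stage. All 39 cells of 32-cell control embryos had more Y-linked than Xist counts, while all 39 cells of 32-cell mimic embryos had Xist counts and almost no Y-linked counts. Treatment and sex therefore cannot be told apart in any comparison of 32-cell mimic with 32-cell control embryos. The 8-cell groups were mixed, with 23 Xist and 7 Y-linked cells in control, and 14 Xist, 8 Y-linked and 2 unassigned cells in mimic. The cells of each group were also split into runs of consecutive numbers in the sample titles. A run ends where the group changes, so each holds 1 group by construction, and no label says that a run marks a batch. Markers of cumulus and granulosa cells, the maternal cells around the egg, were at or near 0 in all 4 groups (8 genes, of which 6 to 8 had no count in a group, and a summed level of at most 1.32 CPM in any cell).

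MicroRNA genes are transcribed as long primary transcripts, from which DROSHA and its RNA-binding partner DGCR8 cut a hairpin in the nucleus. After export, DICER1 removes the loop, and 1 strand of the duplex is loaded onto an Argonaute. The loaded Argonaute pairs with 3′ UTRs through the seed of the microRNA, and TNRC6 proteins recruit deadenylases and repress translation. AGO2 is the mammalian Argonaute best known for cutting a perfectly matched target. In mouse oocytes microRNA activity is low, and a shorter form of Dicer is made there. The Dicer1 counts sum all its transcripts and cannot tell this form from the full-length one. RNA levels say nothing of the amount of each protein.

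The mature miR-381-3p is shown because the mimic was designed to act like it. RefSeq places its 22 bases at chr12:109726870-109726891 on the plus strand of GRCm38.p6. The sequence of the synthetic mimic was not used here. The capitals mark the seed, bases 2 to 8.

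miR-381-3p: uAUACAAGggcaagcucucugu

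Bases 1 to 8 of the microRNA pair with the 8-base site CTTGTATA. Of the 2 sites of 7 bases that lie inside it, CTTGTAT pairs with the whole seed and TTGTATA with bases 1 to 7, which leaves out the last base of the seed. The sites were searched on the transcript strand only, in the longest 3′ UTR that GENCODE M21 (GRCm38) gives each gene. None of the 10 genes held the 8-base site, which was present in 3.12% of the 20741 genes of the table with an annotated 3′ UTR. A 7-base site was present once in each of 5 genes, Dgcr8, Dicer1, Ago2, Ago3 and Tnrc6a, where 21.5% of all genes held a 7-base or 8-base site. These shares are not matched on length: the median 3′ UTR of all genes was 967 bases, and those of 9 of the 10 members were longer. The 5 sites are shown with the bases around them, since these are the only matches to either 7-base site in the searched 3′ UTRs. Those of Dgcr8 and Ago3 match the whole seed, and those of Dicer1, Ago2 and Tnrc6a match all but its last base. The site is in capitals and each runs 5′ to 3′ on the strand of the gene.

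Dgcr8 (chr16:18255238-18255267, minus strand): tgtagatcctgCTTGTATgtatctgctgcg
Dicer1 (chr12:104689779-104689808, minus strand): gtagctataatTTGTATAgtcagatagtaa
Ago2 (chr15:73098615-73098644, minus strand): tgctacatggaTTGTATAattaattataaa
Ago3 (chr4:126344908-126344937, minus strand): agaactctttcCTTGTATccctccttaggc
Tnrc6a (chr7:123194230-123194259, plus strand): agagttgtttgTTGTATAaaaaattttaaa

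The site of Dgcr8 begins at base 266 of a 3′ UTR of 1574 bases, that of Dicer1 at base 1796 of 3851, and that of Ago2 at base 8275 of 11064. The site of Ago3 begins at base 548 of 12742 and that of Tnrc6a at base 1290 of 2345. No site was found in Drosha, Ago1, Ago4, Tnrc6b or Tnrc6c, which says only that these letters are not in the annotated 3′ UTR. The changes of both sets of genes under the mimic are given below.

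All 10 genes are autosomal. Ago3 (chr4:126331704-126429556), Ago1 (chr4:126435012-126468583) and Ago4 (chr4:126489541-126533472) lie side by side on the minus strand of chromosome 4 within 202 kb, with 5.46 kb between Ago3 and Ago1 and 20.96 kb between Ago1 and Ago4. Ago2 lies apart, at chr15:73095844-73184935. Reads of the Argonautes could be told apart almost everywhere: of all 50-base stretches of its transcripts, 1.53% of those of Ago1 and 2.22% of those of Ago2 also occur in another gene, the latter mostly in 3 predicted gene models. Dgcr8 (chr16:18253948-18289246) shares 17.1% of its exon bases with other genes, 825 of them with Trmt2a on the opposite strand. Smart-seq2 does not keep strand, so part of the Dgcr8 counts could come from there.

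The level of each gene in each cell is plotted for the 4 groups.

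**Figure D1:**
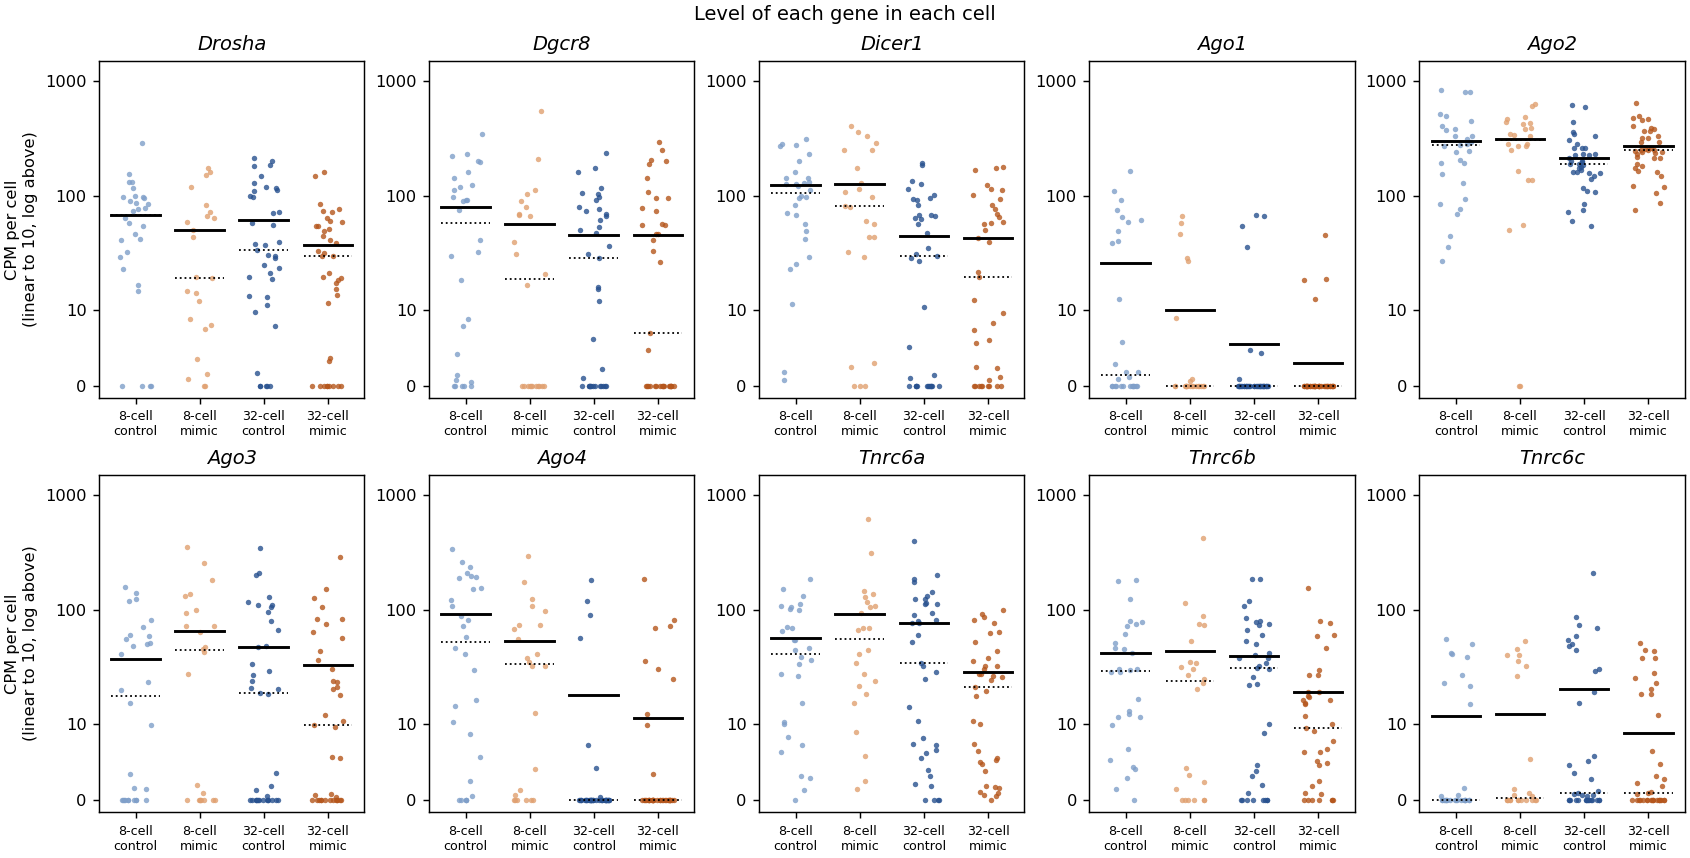
Level of each of the 10 genes (CPM, linear up to 10 and logarithmic above) in each cell, by group. Each point is 1 cell, the solid bar is the pooled CPM of the group and the dotted bar the median cell. Ago2 had a count in all 78 cells of 32-cell embryos, while Ago4 was at 0 in most of them.

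Drosha had a pooled level of 68.4 CPM (95% interval 65.8 to 71.2) in 8-cell control, 49.9 CPM (47.4 to 52.4) in 8-cell mimic, 60.9 CPM (58.9 to 62.9) in 32-cell control and 37.2 CPM (35.6 to 38.9) in 32-cell mimic embryos. Single cells of 8-cell control embryos ranged from 0 to 290.2 CPM with a median of 68.1, and those of 32-cell mimic embryos from 0 to 160.8 CPM with a median of 29.6. Drosha was lower in mimic than in control at both stages, by less than 2-fold, and the cells of all 4 groups overlapped. The 2 title runs of 32-cell control differed from each other as much as the groups did, at 38.1 CPM (24 cells) and 94.8 CPM (15 cells). The 3 runs of 32-cell mimic lay between 32.1 and 43.5 CPM. Without the higher control run the difference between mimic and control at the 32-cell stage was −0.03 on the log2 scale, against −0.70 with it.

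Dgcr8 was at 79.7 CPM (76.8 to 82.6) in 8-cell control, 56.7 CPM (54.1 to 59.4) in 8-cell mimic, 45.6 CPM (43.9 to 47.4) in 32-cell control and 45.2 CPM (43.4 to 47.1) in 32-cell mimic embryos. It had a count in 25 of 30, 13 of 24, 26 of 39 and 21 of 39 cells of these groups. The cells ranged from 0 to 347, 546, 237 and 292 CPM respectively. In 8-cell mimic 1 cell held 37.3% of all Dgcr8 counts, and that cell was among the 4 with under 6000 genes. Without those 4 cells the mimic was lower than control by 0.88 on the log2 scale, against 0.48 with them.

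Dicer1 differed between stages past 2-fold under every alternative run. It was at 123.8 CPM (120.2 to 127.5) in 8-cell control and 126.2 CPM (122.2 to 130.2) in 8-cell mimic, and at 44.0 CPM (42.3 to 45.8) in 32-cell control and 42.8 CPM (41.0 to 44.5) in 32-cell mimic embryos. The median cell went from 106.1 to 29.8 CPM in control and from 81.1 to 19.6 CPM in mimic. A count was present in all 30 cells of 8-cell control and 21 of 24 of 8-cell mimic, but in 26 of 39 cells of 32-cell control and 30 of 39 of 32-cell mimic. Single cells still overlapped between stages, with highest values of 316, 408, 193 and 179 CPM in the order above. The pooled level was 2.81-fold lower at the 32-cell stage in control and 2.95-fold lower in mimic. All 17 alternatives in control and all 16 in mimic also gave a difference past 2-fold, with log2 changes between −2.55 and −1.25 and between −1.91 and −1.21. The pooled level of Dicer1 in mimic was within 0.04 of control on the log2 scale at both stages. The 2 runs of 32-cell control lay at 39.0 and 51.4 CPM, and the 3 runs of 32-cell mimic at 50.6, 57.6 and 16.7 CPM.

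Of the Argonautes, Ago2 was present nearly everywhere. Its pooled level was 301.6 CPM (296.0 to 307.3) in 8-cell control, 312.0 CPM (305.8 to 318.3) in 8-cell mimic, 212.5 CPM (208.7 to 216.3) in 32-cell control and 269.8 CPM (265.4 to 274.2) in 32-cell mimic embryos. The lowest, median and highest cells were at 27.02, 275 and 838 CPM in 8-cell control. They were at 0, 305 and 633 CPM in 8-cell mimic, at 54.0, 191 and 622 CPM in 32-cell control, and at 74.7, 248 and 649 CPM in 32-cell mimic embryos. The groups overlapped almost fully. The 2 cells of 8-cell mimic without an Ago2 count had no count of the other Argonautes either, and both had under 6000 genes. All differences between groups were under 2-fold. At the 32-cell stage Ago2 was higher in mimic by 0.34 on the log2 scale, and in all 17 alternatives it stayed above 0, between 0.19 and 0.60.

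Ago4 was lower at the 32-cell stage and found in few cells there. It was at 91.9 CPM (88.8 to 95.03) in 8-cell control and 52.9 CPM (50.3 to 55.5) in 8-cell mimic, and at 17.8 CPM (16.8 to 18.97) in 32-cell control and 11.4 CPM (10.5 to 12.3) in 32-cell mimic embryos. A count was present in 25 of 30 cells (83.3%, exact binomial interval 65.3 to 94.4) of 8-cell control and in 18 of 24 (interval 53.3 to 90.2%) of 8-cell mimic. At the 32-cell stage the numbers were 7 of 39 (17.9%, 7.54 to 33.5) in control and 10 of 39 (25.6%, 13.0 to 42.1) in mimic. The median cell was at 51.9 and 33.8 CPM in the 8-cell groups and at 0 in both 32-cell groups, and the highest cells were at 343, 295, 181 and 186 CPM. With each cell thinned to 520000 counts, the share was 66.7% in 8-cell mimic, 15.4% in 32-cell control and 25.6% in 32-cell mimic. In 32-cell control 1 cell held 54.7% of the counts. The pooled difference between stages was 5.15-fold in control and 4.64-fold in mimic. Set against the 2 cells of the second title run of 8-cell control alone, the log2 change in control was −0.47, under 2-fold.

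Ago1 was the Argonaute with the fewest counts. It was at 25.9 CPM (24.3 to 27.6) in 8-cell control, 10.0 CPM (8.94 to 11.2) in 8-cell mimic, 5.59 CPM (4.99 to 6.24) in 32-cell control and 3.08 CPM (2.63 to 3.59) in 32-cell mimic embryos. A count was present in 17 of 30, 8 of 24, 7 of 39 and 4 of 39 cells, and the median cell was at 1.55 CPM in 8-cell control and at 0 in the others. The highest cells were at 163.6, 66.3, 68.3 and 45.3 CPM. The pooled level was 4.63-fold lower at the 32-cell stage in control and 3.26-fold lower in mimic. In 32-cell mimic the cell at 45.3 CPM held 68.3% of the counts. The 2 cells of the second title run of 8-cell control had no Ago1 count, and set against those 2 cells alone the directions of stage and treatment were the opposite.

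Ago3 was at 37.1 CPM (35.1 to 39.1) in 8-cell control, 65.6 CPM (62.8 to 68.5) in 8-cell mimic, 47.0 CPM (45.2 to 48.8) in 32-cell control and 32.9 CPM (31.4 to 34.5) in 32-cell mimic embryos. Its count was present in 64.1% to 66.7% of the cells of every group. The highest cells of 8-cell mimic, 32-cell control and 32-cell mimic were at 355, 345 and 291 CPM, and the 4 groups had medians of 17.5, 44.2, 18.9 and 9.84 CPM. No difference between these groups was past 2-fold. In Y-linked cells alone Ago3 was past it, higher at the 32-cell stage in control (1.51 on the log2 scale) and higher with mimic at the 8-cell stage (2.34). The stage difference in mimic (−0.97) was past it in 5 of 16 alternatives. Set against the 2 cells of the second title run of 8-cell control alone, the changes were 4.12 for stage in control and 4.59 for mimic. Without the first run of 32-cell control, the stage difference in control turned from 0.33 to −0.22.

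Levels of different genes can be compared only per length, and per kilobase of the longest annotated transcript the make-up of the Argonautes differed between stages. In 8-cell control Ago2 made up 52.2% of the summed Argonaute level and Ago4 33.6%. In 8-cell mimic the shares were 62.3% and 22.3%. In 32-cell control Ago2 made up 70.3% and Ago4 12.5%, and in 32-cell mimic 82.1% and 7.31%. The level of Ago2 itself was 21.9, 22.6, 15.4 and 19.6 CPM per kb in the 4 groups, and that of Ago4 14.1, 8.09, 2.73 and 1.74 CPM per kb. Thinned to equal counts, 23 of 30 cells of 8-cell control and 16 of 24 of 8-cell mimic embryos had counts of at least 3 Argonautes. The same was found in 6 of 39 cells of 32-cell control and 7 of 39 of 32-cell mimic embryos.

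**Figure D2:**
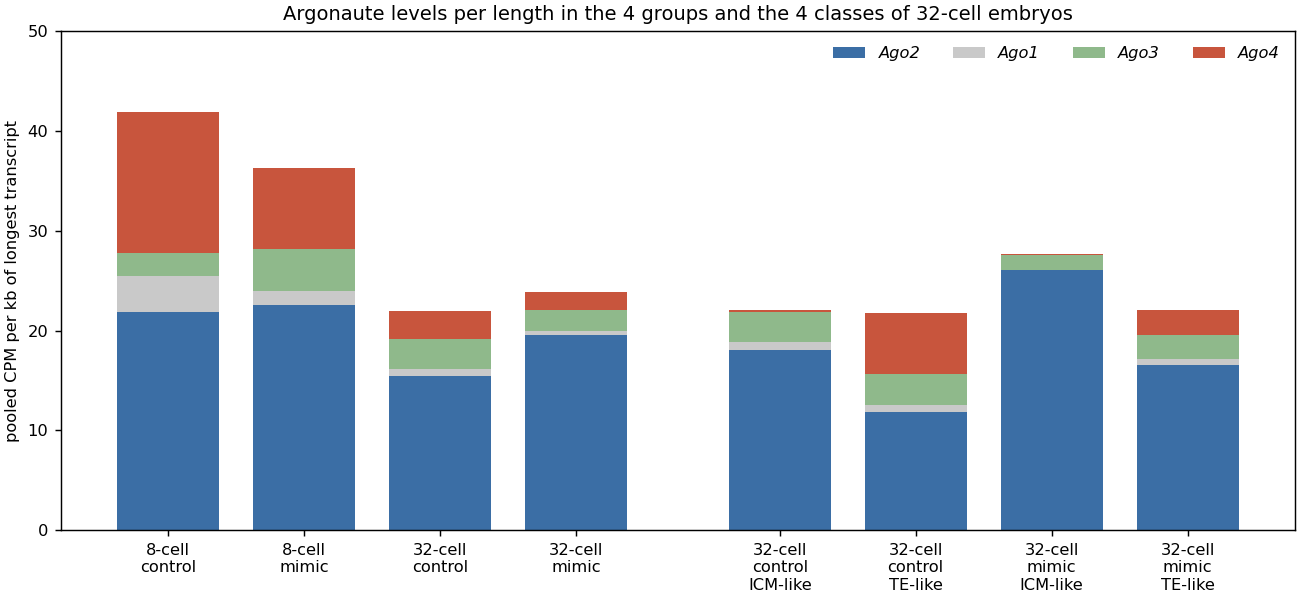
Pooled CPM per kilobase of the longest annotated transcript for the 4 Argonautes, stacked, in the 4 groups (left) and in the ICM-like and TE-like cells of 32-cell embryos (right). The Ago4 part is 14.1 CPM per kb in 8-cell control and 2.73 in 32-cell control, and within 32-cell embryos it lies almost wholly in the TE-like cells.

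Among the TNRC6 genes, Tnrc6a was at 56.4 CPM (54.0 to 58.9) in 8-cell control, 92.0 CPM (88.6 to 95.4) in 8-cell mimic, 77.1 CPM (74.8 to 79.4) in 32-cell control and 28.4 CPM (interval up to 29.9) in 32-cell mimic embryos. It was found in most cells of every group (29 of 30, 24 of 24, 35 of 39 and 38 of 39). The median cells were at 41.2, 55.6, 34.0 and 21.2 CPM and the highest at 185, 618, 395 and 100 CPM. In 8-cell mimic 37.7% of the counts came from the cell at 618 CPM, which had the fewest genes of all cells. Without the cells under 6000 genes the 8-cell difference between mimic and control was 0.17 on the log2 scale, against 0.70 with them.

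Tnrc6b was at 41.8 CPM (39.8 to 44.0), 43.9 CPM (41.6 to 46.3), 39.6 CPM (37.96 to 41.3) and 19.2 CPM (18.04 to 20.4) in 8-cell control, 8-cell mimic, 32-cell control and 32-cell mimic embryos. The median cells were at 29.2, 23.8, 31.2 and 9.57 CPM and the highest at 183, 425, 186 and 154.8 CPM. The cell at 425 CPM held 37.5% of the Tnrc6b counts of 8-cell mimic, and it is the same cell under 6000 genes that held the most Dgcr8 counts. Tnrc6c had the lowest levels of the TNRC6 genes, at 11.8 CPM (10.7 to 12.9), 12.3 CPM (11.1 to 13.6), 20.2 CPM (19.1 to 21.4) and 8.87 CPM (8.08 to 9.70) in the same order. Per kilobase it was lowest too, at 1.015, 1.06, 1.75 and 0.765 CPM per kb. A Tnrc6c count was present in 12 of 30, 12 of 24, 24 of 39 and 21 of 39 cells. The groups overlapped for all 3 TNRC6 genes, and all 3 had their lowest level in 32-cell mimic embryos.

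The comparison of stages in control embryos asks how the machinery changed between the 8-cell and 32-cell stage. A gene was taken as past 2-fold where the log2 ratio of pooled CPM + 1 was at least 1 in size, among genes with a mean of at least 5 CPM over both groups. Dicer1 (log2 change −1.47), Ago1 (−2.03) and Ago4 (−2.30) were lower at the 32-cell stage, 3 of 10 members, where 20.8% of 9515 genes were lower. None of the 10 was higher, where 29.9% of genes were. The median of the 10 was −0.33 and that of all genes tested 0.20. The other 7 lay between −0.79 (Dgcr8) and 0.73 (Tnrc6c). At this background, a count of 3 is not a result about the members as a set. In Y-linked cells alone, the sex of all 32-cell control cells, the 3 log2 changes were −1.68, −2.98 and −2.75, and 1 member, Ago3, was higher at 1.51.

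In mimic embryos the same 3 genes were lower at the 32-cell stage (Dicer1 −1.54, Ago1 −1.43, Ago4 −2.12), and Tnrc6a (−1.66) and Tnrc6b (−1.15) as well. That is 5 of 10 members, where 18.8% of 9652 genes were lower, and 0 of 10 were higher, where 30.2% were. All 10 lay below 0 with a median of −1.06, where the median of all genes was 0.24. Not all stayed there. By the mean log2(CPM + 1) per cell Ago2 was at 0.50 and Tnrc6c at 0.08, and without the highest cell of each member Dgcr8 was at 0.28. The Tnrc6b value rests on 1 cell of 8-cell mimic embryos. Without the highest cell of each member Tnrc6b was at −0.55 and Ago1 at −0.94, which left 3 past 2-fold (Dicer1, Ago4 and Tnrc6a) of the 9 that then passed the filter. By the mean log2(CPM + 1) per cell Tnrc6b was at −0.44. In Xist cells alone, the sex of all 32-cell mimic cells, Dicer1 was at −1.91 and Tnrc6a at −0.55. Dose differed between the stages here, and the control and mimic comparisons were not tested against each other.

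**Figure D3:**
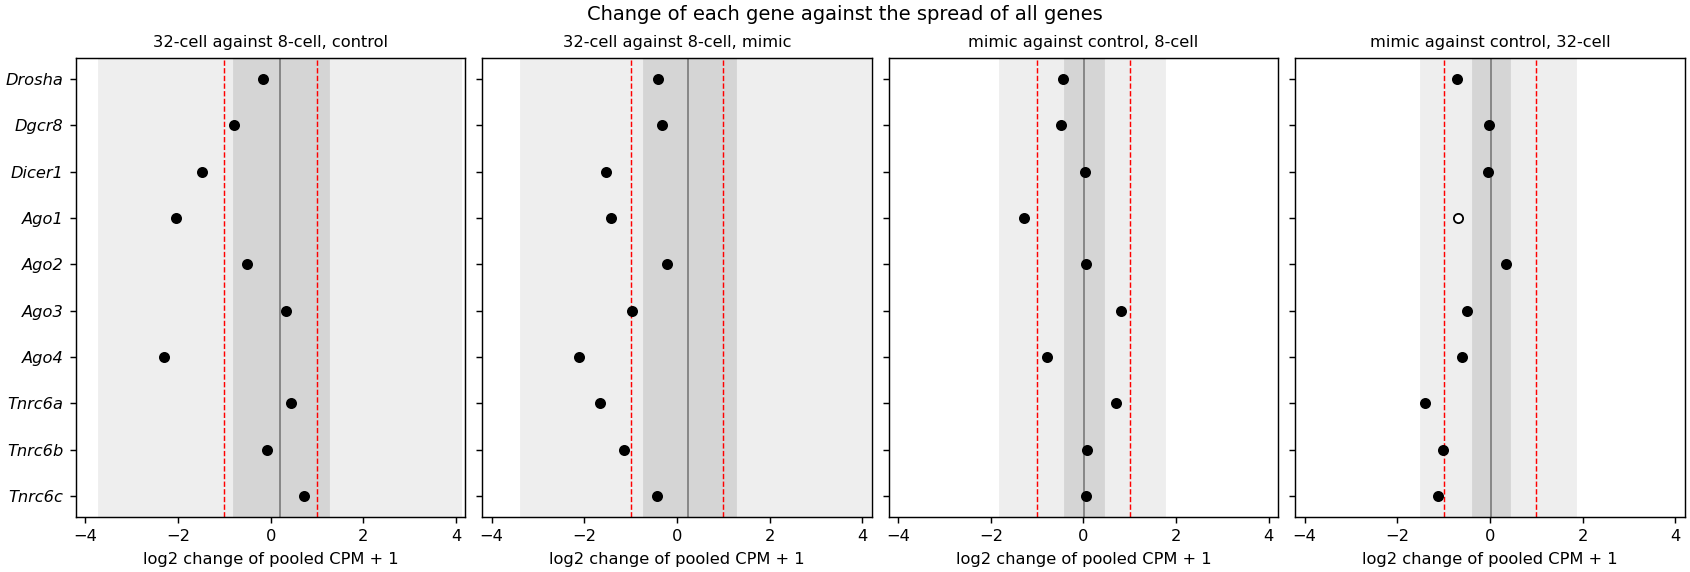
Log2 change of pooled CPM + 1 for the 10 genes in the 2 comparisons of stages and the 2 of treatments. Dark and light grey bands hold the middle 50% and 95% of all genes tested, the grey line is their median and the dashed red lines mark 2-fold. The open circle is Ago1, which had a mean under 5 CPM. Dicer1, Ago1 and Ago4 lie left of the dashed line in both comparisons of stages, and the 3 TNRC6 genes in the treatment comparison at the 32-cell stage.

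The comparison of mimic with control asks how the levels of the 10 genes differed between the treatments at each stage. At the 8-cell stage 1 of 10 members was lower, Ago1 (−1.29), where 8.66% of 8988 genes were lower, and 0 were higher, where 8.92% were. The members' median was 0.04 and that of all genes 0.02. The difference in Ago1 was not seen in Xist cells alone (−0.01) and was −4.55 in Y-linked cells alone, 8 mimic against 7 control cells. Over the 10 genes, 0 were past 2-fold in Xist cells alone. In Y-linked cells alone 1 was higher, Ago3 (2.34), and 6 were lower, Ago1, Ago4 (−1.98), Dgcr8 (−1.66), Tnrc6b (−1.63), Tnrc6c (−1.15) and Drosha (−1.14). The difference between the sexes was not tested. Ago3 (0.81) and Tnrc6a (0.70) were the highest and Ago4 (−0.79) the next lowest. The 5 genes with a 7-base site had log2 changes of −0.48 (Dgcr8), 0.03 (Dicer1), 0.05 (Ago2), 0.81 (Ago3) and 0.70 (Tnrc6a). Those without a site lay between −1.29 (Ago1) and 0.07 (Tnrc6b).

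At the 32-cell stage 3 of 9 members tested were lower in mimic, where 6.29% of 9464 genes were lower, and 0 were higher, where 9.37% were. The 3 were the TNRC6 genes, at −1.41 (Tnrc6a), −1.11 (Tnrc6c) and −1.01 (Tnrc6b), and the difference of each is also that between female and male embryos. The median of the 9 was −0.61, with 8 below 0, and that of all genes 0.03. Tnrc6a lay below 0 in all 17 alternatives, between −1.64 and −0.79. Its pooled level was 90.9 and 56.5 CPM in the 2 runs of 32-cell control and 17.2, 34.0 and 36.7 CPM in the 3 runs of 32-cell mimic. The runs are not replicates of a treatment, and single cells of the groups overlapped. Tnrc6b and Tnrc6c depended on single runs. Tnrc6b was at 54.2 and 17.9 CPM in the control runs and at 23.9, 14.9 and 17.8 CPM in the mimic runs, and was at 0.10 without the first control run. Tnrc6c was at 14.5 and 28.8 CPM in the control runs and at 16.3, 3.38 and 5.30 CPM in the mimic runs. Comparing the mean of log2(CPM + 1) per cell, which gives weight to the many low cells, left all 3 under 2-fold, at −0.79, −0.43 (Tnrc6c) and −0.81 (Tnrc6b). Of the genes with a 7-base site, Dgcr8 (−0.01), Dicer1 (−0.04), Ago2 (0.34) and Ago3 (−0.50) stayed under 2-fold, and 4 of the 5, Tnrc6a included, lay below 0. The 5 genes without a site all lay below 0, at −0.70 (Drosha), −0.69 (Ago1, which had a mean under 5 CPM), −0.61 (Ago4), −1.01 (Tnrc6b) and −1.11 (Tnrc6c). Ago4 kept this direction in 12 of 17 alternatives and was at 0.45 by the mean log2(CPM + 1) per cell.

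Cells of 32-cell embryos were separated into an ICM-like and a TE-like class, after the inner cell mass that forms the embryo and the trophectoderm that forms the placenta. The 10 genes and the partner and PIWI genes described below were kept out of the clustering. The cluster with the highest mean score of ICM over TE markers was named ICM-like, and that with the lowest TE-like. All 9 ICM markers were higher in the ICM-like class and all 9 TE markers in the TE-like class. As the same markers named the classes, this is no independent check. There were 25 ICM-like and 14 TE-like cells in control and 13 and 26 in mimic embryos, and the ICM-like share in mimic was 33.3% by clusters and 43.6% by a marker score, so the border is less sharp there. Since clusters are made from the cells they are compared in, the values below are a description.

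In control embryos Ago4 was at 1.35 CPM (0.982 to 1.81) in ICM-like and 39.9 CPM (37.4 to 42.5) in TE-like cells, with a count in 2 of 25 and 5 of 14 cells. In mimic embryos it was at 0.894 CPM (0.5001 to 1.47) and 16.2 CPM (14.9 to 17.6), with a count in 1 of 13 and 9 of 26 cells. Ago4 was thus nearly absent from ICM-like cells in both treatments, and most TE-like cells had no count either. A single TE-like control cell held 57.2% of its class's counts. Over all 32-cell embryos Ago4 was also among the 10 genes with the largest fold in the TE-like direction. Ago2 was present in every cell of all 4 classes. It was at 249 CPM in ICM-like and 163.7 CPM in TE-like control cells, and at 359.9 and 228 CPM in those of mimic embryos, higher in ICM-like cells by 0.60 and 0.65 on the log2 scale. That direction held in all 16 and all 17 alternatives, between 0.44 and 0.74 and between 0.51 and 0.77.

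Over the 10 genes, 1 (Ago4, log2 change −4.12) was lower in ICM-like than in TE-like control cells, where 11.4% of 9208 genes were lower, and 0 were higher, where 14.5% were. The Ago4 change stayed past 2-fold in all 16 alternatives, but its size ranged from −5.07 with 1 cell left out to −1.42 by the mean log2(CPM + 1) per cell, and 1 cell held 84.1% of the ICM-like counts. In mimic embryos 2 of 9 were higher in ICM-like cells, where 10.6% of 9566 genes were higher, and 2 were lower, where 11.0% were. Dgcr8 was at 82.7 CPM (78.4 to 87.1) in ICM-like and 27.95 CPM (26.3 to 29.7) in TE-like mimic cells, a log2 change of 1.53. Dicer1 was at 76.2 CPM (72.1 to 80.5) and 27.3 CPM (25.7 to 29.1), a change of 1.45. Drosha went the other way, at 17.8 CPM (15.9 to 20.0) and 46.1 CPM (43.9 to 48.4), a change of −1.32. These 3 differences stayed past 2-fold in all 17 alternatives. In control cells the same genes differed by less, at 0.90 (Dgcr8), −0.36 (Dicer1) and 0.12 (Drosha), and the difference between treatments was not tested.

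**Figure D4:**
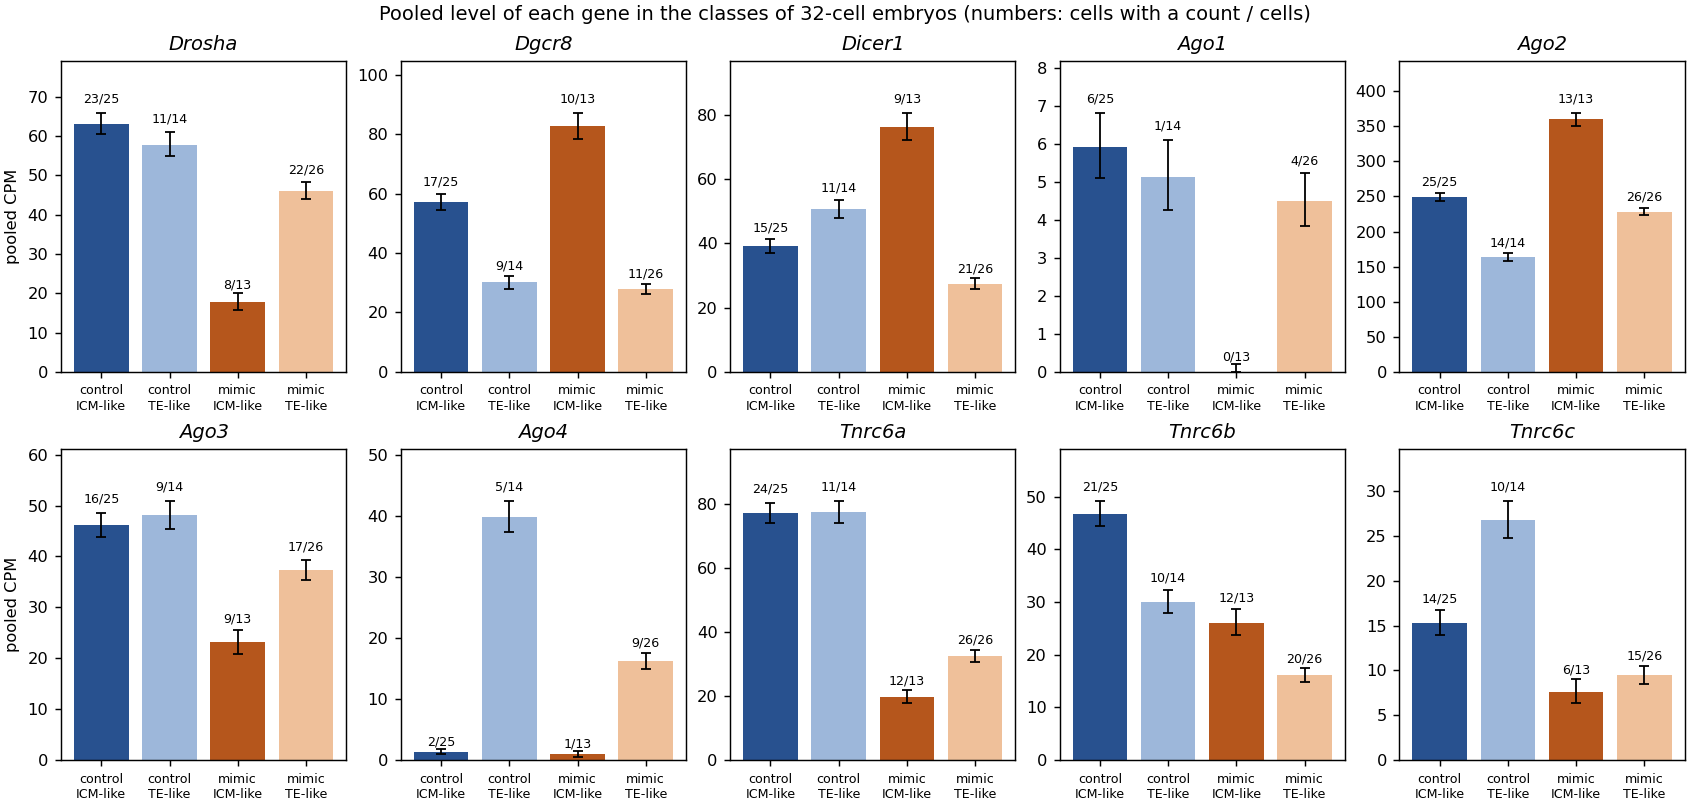
Pooled CPM of each gene in ICM-like and TE-like cells of 32-cell control and mimic embryos, with exact 95% Poisson intervals that cover counting error only; the numbers above the bars are cells with a count and all cells of the class. Ago4 is near 0 in ICM-like cells of both treatments, and Dgcr8 and Dicer1 are highest in ICM-like mimic cells, where Drosha is lowest.

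Within ICM-like cells 2 of 8 members tested were lower in mimic than in control, where 11.3% of 9487 genes were lower, and 0 were higher, where 13.7% were. Drosha went from 63.1 CPM in control to 17.8 CPM in mimic (−1.77), with medians of 30.4 and 3.71 CPM, and Tnrc6a from 76.97 to 19.7 CPM (−1.91), with medians of 32.1 and 25.99 CPM. Both stayed past 2-fold in all 19 alternatives, Tnrc6a between −2.38 and −1.04, the latter by the mean log2(CPM + 1) per cell. In ICM-like control cells 1 cell held 32.2% of the Tnrc6a counts and 3 cells held 55.3%. The other 6 were under 2-fold, at 0.94 (Dicer1), 0.53 (Ago2), 0.52 (Dgcr8), −0.82 (Tnrc6b), −0.93 (Tnrc6c) and −0.96 (Ago3). The median of the 8 was −0.88, with 5 below 0, and that of all genes 0.04. Ago1 had no count in any of the 13 ICM-like mimic cells, which allows up to 0.179 CPM as 3 counts of the pooled total (the exact Poisson interval ends at 0.22 CPM), against 5.93 CPM and 6 of 25 cells in control. In control 3 cells held 92.2% of the counts, and without the first title run of 32-cell control no Ago1 count was left in ICM-like cells of either treatment. Within TE-like cells 3 of 9 members were lower in mimic, where 8.8% of 9299 genes were lower, and 0 were higher, where 14.7% were. These were Tnrc6c (−1.41), Ago4 (−1.25) and Tnrc6a (−1.23). By the mean log2(CPM + 1) over cells none of the 3 was past 2-fold, at −0.65 (Tnrc6c), 0.06 (Ago4) and −0.56 (Tnrc6a). Without the second title run of 32-cell control Tnrc6c was at 0.17. Treatment and sex coincide in both classes.

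The rest of the pathway was read from a list of 58 partner genes. In control embryos 7 of the 54 that passed the filter were higher and 5 lower by 2-fold at the 32-cell stage, with a median of 0.02. Of all genes, 29.9% were higher and 20.8% lower. The highest were Zswim8 (3.35), the substrate receptor of a ligase that drives microRNA decay, Limd1 (2.15), a LIM protein that binds Argonaute, and Tut7 (1.24), which adds uridines to hairpins. The lowest were Ajuba (−2.27), a relative of Limd1, Ncbp2 (−1.37), a subunit of the nuclear cap-binding complex, and Cnot6l (−1.29), a deadenylase. In mimic embryos 5 of 54 were higher and 8 lower, with a median of −0.22, where 30.2% and 18.8% of all genes were. Of the 12 deadenylase subunits, 1 was higher and 1 lower between stages in control, and 0 and 2 in mimic. Hsp90aa1, a chaperone used in loading Argonaute, was higher at the 32-cell stage in both treatments, at 1.19 and 1.17. It was named after its values were seen, and it was the only 1 of the 6 listed loading chaperones past 2-fold. The 6 had a median of −0.14 in control, with 3 above and 3 below 0. In mimic their median was −0.31, with 2 above and 4 below 0.

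With mimic at the 8-cell stage 2 of 53 partners were higher and 2 lower, where 8.92% and 8.66% of all genes were. The lower ones were Dcp1a (−2.13), a decapping activator, and Adar (−1.64), which edits double-stranded RNA. At the 32-cell stage 2 of 54 were higher and 3 lower, where 9.37% and 6.29% of all genes were. Prkra, which binds Dicer, was at 9.43 CPM in mimic and 1.11 CPM in control, and Ipo8, an importin that binds Argonaute, at 18.8 and 60.8 CPM. In ICM-like cells Prkra was at 20.5 and 1.23 CPM and Patl1, a decapping factor, at 3.93 and 36.7 CPM, among 4 higher and 4 lower of 53 (all genes 13.7% and 11.3%). In TE-like cells the helicase gene Mov10 was at 25.6 CPM in mimic and 84.4 CPM in control, and the exonuclease gene Dis3l2 at 8.12 and 2.06 CPM, among 2 higher and 4 lower of 54 (all genes 14.7% and 8.8%). Between classes 3 of 53 partners were higher and 4 lower in ICM-like control cells (all genes 14.5% and 11.4%), and 4 and 3 of 53 in mimic (10.6% and 11.0%). None of these counts is read as a result about the partners as a set.

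The PIWI branch, which handles piRNAs in the germ line, was listed for comparison with 10 genes. In control embryos only 6 passed the filter, of which 4 were lower at the 32-cell stage and 0 higher, where 20.8% and 29.9% of all genes were. These were Mael (−2.15), Tdrkh (−2.10), Ddx4 (−1.88) and Piwil2, which went from 132.4 to 49.1 CPM. The median of the 6 was −1.64. In mimic embryos 3 of 6 were lower and 0 higher (all genes 18.8% and 30.2%). At the 8-cell stage Piwil2 (−1.51) and Mael (−1.48) were among 3 of 6 lower with mimic (all genes 8.66%). At the 32-cell stage Mov10l1 (−2.24) was lower and Mael (1.04) higher with mimic among 5 (all genes 6.29% and 9.37%). In ICM-like cells Mov10l1 (−2.68) and Asz1 (−2.07) were lower with mimic, 2 of 5 (all genes 11.3%). In TE-like cells Mael was at 11.8 CPM with mimic and had no count in control, 1 higher of 4 (all genes 14.7%). Between classes 2 of 4 were higher in ICM-like control cells (all genes 14.5%) and 1 of 4 lower in mimic (11.0%). With 4 to 6 of the 10 genes measured well enough, these counts say little of the branch as a whole.

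The genes most like Ago2, Dicer1, Drosha and Dgcr8 over all cells were searched for, and those of the other 6 members were not. No gene among 9636 tracked Dicer1, Drosha or Dgcr8 with a Pearson r over 0.5 of log2(CPM + 1). Ago2 had 3 such genes among its closest, Trip12 (0.54), Rangap1 (0.51) and Uqcrb (0.51), and all points share the library depth and the number of genes of their cell. Within the Microprocessor, Drosha and Dgcr8 had an r of −0.01 over all cells. In counts as sparse as these a low r is no finding.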

How the data were processed

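Cells were sequenced on a NextSeq550 by the authors, who filtered at 3000 genes and 10% mitochondrial counts. Per the submitters' processing notes, STAR 2.5.1b, RSEM 1.3.0 and FastQC were used with mm10 (GRCm38). The deposited table holds expected counts per gene, estimated by the authors, all whole numbers, for 132 cells. Reads assigned by RSEM to similar genes are shared out by its model. Levels are counts summed over cells per 1000000, without 13 mitochondrial genes; log2 ratios use a pseudocount of 1 CPM, a mean of at least 5 CPM and a limit of 2-fold. With 1 sample a group no test was run. Classes were clustered with Seurat 5.3.0 (2000 variable genes, 25 principal components) on every other gene. TMM factors came from edgeR 4.0.16, used for scaling only. 3′ UTRs came from GENCODE M21, another release of the authors' build. The scripts for fold calls and intervals were tested on simulated counts with known folds. These were Poisson draws from pooled levels, without PCR copies or spread between cells. They do not show how the intervals hold for real counts. The rule for the 10 genes uses no measured value, but the set, the lists and the classes were chosen with earlier results of these data known. Partner genes were named by rule: the 3 highest and 3 lowest past 2-fold between control stages and the 2 largest in each treatment comparison, with 1 exception, Hsp90aa1. Alternatives covered scaling, weighting, thinning to 520000 counts, pseudocount, filter, fold limit, title runs, sex, class definition and single cells left out.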

Additional observations from a re-analysis of the deposited data

How the results depend on the processing

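Of the recomputed counts of members past 2-fold, 125 stayed within 1.5 times the reported one and 36 did not, and of 413 recomputed changes of members past 2-fold, 408 kept their direction and 366 were still past 2-fold in it. With a 1.5-fold limit the counts were 5 for stages in control, 4 for mimic at the 8-cell stage, 5 at the 32-cell stage, 5 and 8 for classes in control and mimic, and 6 and 5 for mimic in ICM-like and TE-like cells. By the mean log2(CPM + 1) per cell they were 3 for stages in mimic, 2 for mimic at the 8-cell stage, 0 at the 32-cell stage, 3 for classes in control, and 4 and 0 for mimic in ICM-like and TE-like cells. Without single title runs the counts moved to 5 for stages in control (run 1 of 32-cell control), 3 for mimic at the 8-cell stage (run 1 of 8-cell control, which leaves 2 cells), 1 at the 32-cell stage (run 3 of mimic), 3 and 2 for classes in control (runs 1 and 2), 4, 4 and 6 for mimic in ICM-like cells (runs 1 and 3 of mimic, run 2 of control) and 5 in TE-like cells (run 1 of mimic). For mimic at the 8-cell stage the count was 0 with a mean of 20 CPM or more, 0 in Xist cells and 7 in Y-linked cells. For mimic at the 32-cell stage a pseudocount of 5 CPM gave 1. Equal weight of cells gave 2 for classes in control and 4 for mimic in ICM-like cells, and thinning gave 5 there. 2 alternatives were chosen after seeing the data: without the highest cell of each member the counts were 3 for stages in mimic and 2 for mimic at the 8-cell stage, and without cells under 6000 genes 4 for mimic in ICM-like cells. Leaving out each cell in turn gave 1 to 2 for mimic at the 8-cell stage, 1 to 2 for classes in control, and up to 4 and 5 for mimic in ICM-like and TE-like cells. Among the changes past 2-fold, the directions that turned were those of Ago1, Tnrc6b, Ago4 and Tnrc6c. Ago1 turned between stages in control (2.72) and for mimic at the 8-cell stage (3.46) without run 1 of 8-cell control. Tnrc6b turned for mimic at the 32-cell stage (0.10) without run 1 of control. In TE-like cells Ago4 (0.06) turned by mean log2 and Tnrc6c (0.17) without run 2 of control. The cause was not tested. Median-of-ratios scaling moved the median of all genes between stages by −0.11 in control and −0.17 in mimic, and TMM by −0.12 in mimic; 3 and 6 members were then lower. By merged exons the Ago2 share was 53.6%, 63.5%, 71.3% and 82.8% in the 4 groups. With 7-base sites, 5 members held a site in place of 0. None of 40 shares of cells left its interval after thinning. No paired analysis was possible because no result comes from a test and the shared numbers in the titles only name cells. Depth limits the shares of cells with a count, since a gene with few reads can be missed in a cell.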
